A study of Homo sapiens with 4 samples.

Results

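The androgen-regulated kallikrein cluster on the long arm of chromosome 19 was examined through peak summits of ATAC-seq, an assay in which a transposase cuts and tags accessible DNA. Its members were the genes KLK1, KLK15, KLK3, KLK2 and KLK4, named here in chromosome order. Summits were taken from chr19:50799146-50931395 of GRCh38, which runs from 20 kb below KLK1 to 20 kb above KLK4 and spans 132250 bp. Summits were extended 250 bp in both directions, and those that then overlapped, in any library, formed 1 region. This gave 23 sites in the window, of 151102 regions in the whole series. The window was set by gene positions.

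There were 4 libraries, 2 per group. LNCaP is a prostate cancer cell line, labelled as wild type with no treatment named. The other group, LNCaP-resistance, is a line derived from LNCaP and labelled as resistant cells treated with enzalutamide, a drug that blocks androgen signalling. In the methods of the study, LNCaP cells were first adapted to charcoal-stripped serum and then taken through rising enzalutamide doses, whereas the labels describe a single medium with fetal bovine serum for both lines. The labels name neither the dose nor the subline, and whether drug or androgen differed at harvest is not given in the sources used here, so these cannot be told apart from resistance. Replicates 1 and 2 of both lines carry the batch tags repeat1 and repeat2, and nothing states that they came from separate cultures.

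The lists held between 107344 and 117245 summits for LNCaP and between 45618 and 70866 for LNCaP-resistance. They give no read counts, so depth is unknown, and a missing summit means that none was listed, not that the DNA was closed. The score of a summit is the −log10 of a p-value or q-value and grows with depth. It was therefore turned into a percentile, the percent of the summits of the same library with an equal or lower score. Regions with a summit in all 4 libraries had a median change of -4.66 points from LNCaP to LNCaP-resistance across the genome, which is the level against which changes are read. The luminal prostate genes FOXA1, HOXB13 and TMPRSS2 each had a summit in or within 1 kb of the gene in every library. With 2 libraries against 2, an exact two-sided permutation test cannot give a p below 0.333, so differences were read against the spread between replicates.

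Kallikreins are secreted serine proteases. KLK3 encodes prostate-specific antigen, which liquefies semen and serves as the blood marker of prostate cancer, and KLK2 encodes a protease that can activate the precursor of prostate-specific antigen. In luminal prostate cells androgens raise the transcription of KLK3 and KLK2 through response elements in their promoters and upstream enhancers. The androgen response element consists of AGAACA and, after a spacer of 3 bases, the same element reversed, TGTTCT.

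The promoters of KLK3 and KLK2 are shown because the genes are close relatives whose promoters hold such an element, while the summits at their starts differed. Promoter sequences from RefSeq for GRCh38.p14 matched 4 of the 5 members, and KLK1 had no entry. Each line gives the 250 bases before the gene's start, 5′ to 3′ on the plus strand, from chr19:50854665-50854914 for KLK3 and chr19:50873189-50873438 for KLK2. Capitals mark the best match to the response element.
KLK3: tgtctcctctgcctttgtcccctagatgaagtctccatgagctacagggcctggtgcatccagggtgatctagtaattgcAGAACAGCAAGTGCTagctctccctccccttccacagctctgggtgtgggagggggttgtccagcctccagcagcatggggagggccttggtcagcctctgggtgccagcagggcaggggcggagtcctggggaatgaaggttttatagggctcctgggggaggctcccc
KLK2: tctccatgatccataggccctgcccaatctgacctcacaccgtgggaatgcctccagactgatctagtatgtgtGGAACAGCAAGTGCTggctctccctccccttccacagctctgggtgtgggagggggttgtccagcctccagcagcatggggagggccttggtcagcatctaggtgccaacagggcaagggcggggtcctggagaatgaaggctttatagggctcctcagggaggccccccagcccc

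The match lay between 170 and 156 bases before the start of KLK3, with 2 mismatches outside the spacer, and between 176 and 162 bases before the start of KLK2, with 3. Among the 35116 promoter entries of the table, 1.18% held a match with at most 2 mismatches and 9.17% one with at most 3. The 4 entries of KLK15 and KLK4 had at least 5 mismatches, a level that 85.4% of all entries reached or bettered. The element AGAACA, searched on both strands, occurred once in the KLK3 promoter and in none of the other member entries, against 12.4% of all entries. The forkhead element TGTTTAC, also searched on both strands, occurred in no member entry, against 2.98% of all entries. After alignment, 79.2% of the 259 columns were identical between the KLK3 and KLK2 promoters, and the longest identical run was 80 bases. How reads that match both genes were handled is not given in the sources used here.

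All 4 libraries had a summit within the 250 bases printed for KLK2, and no library had one within those printed for KLK3. At KLK2 the summits lay 223 and 213 bp before the start in LNCaP replicates 1 and 2, and 213 and 225 bp before it in LNCaP-resistance replicates 1 and 2. The closest summit to the start of KLK3 in any library was 3079 bp away. Thus the start of KLK3, the gene of prostate-specific antigen, had no listed summit in LNCaP cells either.

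In number, summits in the window did not fall in the resistant line. LNCaP replicates 1 and 2 had 19 and 17 summits there, and LNCaP-resistance replicates 1 and 2 had 20 and 16, so the groups overlapped and both means were 18.0 (SD 1.41 and 2.83, n = 2). The whole lists were shorter in the resistant line, with a ratio of 0.519 between the group means. Per 100000 summits of its list, the window held 16.2 and 15.8 in LNCaP and 28.2 and 35.1 in LNCaP-resistance, a ratio of 1.98, and every resistant library was above every LNCaP library (exact two-sided permutation test, p = 0.333, the smallest possible). As a share of the summits on chromosome 19 the ratio was 1.295, and that chromosome held 3.09% of LNCaP summits and 4.70% of LNCaP-resistance summits. With every list cut to the same length, the ratio was 1.36 for both the number and the share.

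Most of the window's sites were found in both lines. Of the 23 sites, 12 had a summit in all 4 libraries, where the share among all regions of the genome was 21.1% and that on chromosome 19 was 32.7%. LNCaP-only sites, those listed by each LNCaP library but by no resistant library, numbered 2, against 27.5% of all regions. Resistance-only sites, defined the other way round, also numbered 2, against 3.84%. They numbered 4 without LNCaP replicate 1, where 6.33% of all regions were resistance-only, and 6 when each list was cut to the same length, where 14.9% were. The remaining 7 had a summit in 1 to 3 libraries in some other combination, and 3 of these rested on 1 library. Between 76.5% and 87.5% of a library's summits in the window lay outside the 5 genes, which leave 76.6% of the window's length outside them. At the 12 sites found in all libraries, the 4 summits lay within 12 to 122 bp of each other, with a median of 42 bp.

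**Figure D1:**
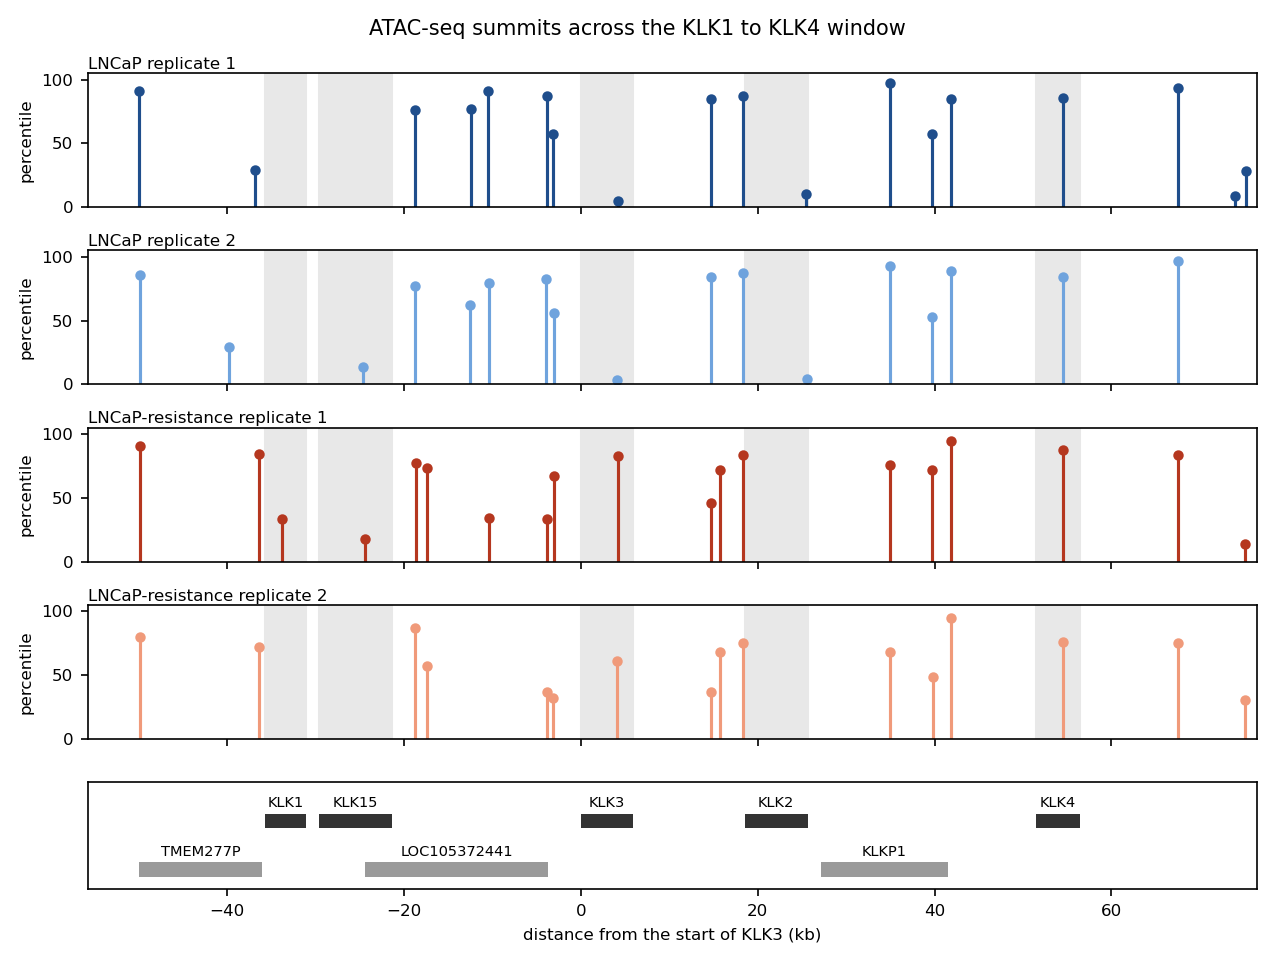
Strongest summit of each site in each library, placed by distance from the start of KLK3 in kb (horizontal axis) with its percentile in that library (vertical axis); grey bands and black bars are the 5 member genes and lighter bars TMEM277P, LOC105372441 and KLKP1. The sites 4.0 kb below and 14.7 kb above the start of KLK3 are tall in the LNCaP libraries and short in the LNCaP-resistance libraries, and the site inside KLK3 shows the reverse.

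Upstream of KLK3 and of KLK2, a strong LNCaP site ranked lower in the resistant line, and at a like distance from each start. The site of KLK3, chr19:50850396-50851376, lies in the stretch between KLK15 and KLK3 at the end of the long noncoding RNA gene LOC105372441. Its summits were 3891 and 3911 bp before the start of KLK3 in LNCaP and 3851 and 3789 bp before it in LNCaP-resistance. They scored 34.9 and 25.1 in LNCaP replicates 1 and 2, at percentiles 87.2 and 82.6, and 9.42 and 7.37 in LNCaP-resistance replicates 1 and 2, at percentiles 33.4 and 36.7. Both resistant libraries were thus far below both LNCaP libraries. The change of -49.9 points compares with a pooled SD of 2.83 between replicates, and was -53.8 in batch 1 and -45.9 in batch 2. Across the genome, 4.12% of the regions found in all libraries had a lower change.

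The site of KLK2, chr19:50869404-50869917, is in the interval between KLK3 and KLK2, outside annotated genes. Its summits were 3785 bp before the start of KLK2 in both LNCaP libraries, and 3784 and 3772 bp before it in the resistant libraries. LNCaP summits ranked at percentiles 84.9 and 84.0 and resistant ones at 45.5 and 36.8, with scores of 32.2 and 26.2 against 13.8 and 7.39. The groups did not overlap. The change was -43.3 points against a pooled SD of 4.39, and was -39.4 and -47.2 in batches 1 and 2. A lower change was found at 6.73% of the regions with a summit in all libraries.

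Next to each of these sites, on the side of the gene start, lay a second site that behaved differently. Beside the KLK3 site, chr19:50851549-50852086 had summits between 3079 and 3116 bp before the start of KLK3. LNCaP summits ranked at percentiles 57.0 and 56.0, resistant ones at 67.0 and 31.7. The resistant replicates lay on either side of LNCaP, and the change of -7.12 points was within the pooled SD of 17.7. Among the regions found in all libraries it was 6.98 points, and the groups again overlapped. Beside the KLK2 site, chr19:50870366-50870874 was resistance-only. Its summits, 2823 and 2815 bp before the start of KLK2, were at percentiles 71.6 and 68.3, with scores of 33.4 and 19.5, and neither of the longer LNCaP lists held a summit there. The split depended on the extension: with summits extended by 500 bp, each pair of neighbours joined into 1 site. The strongest summits of the KLK3 pair are 87.2 and 82.6 in LNCaP and 67.0 and 36.7 in LNCaP-resistance. Those of the KLK2 pair are 84.9 and 84.0 against 71.6 and 68.3, a smaller drop than at the single site.

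At the KLK2 promoter itself, chr19:50872964-50873476, both LNCaP summits ranked at percentile 87.3, and the resistant ones at 83.2 and 75.3. The change of -8.02 points exceeded the pooled SD of 3.96, yet 43.0% of the regions found in all libraries had a lower change. Its direction depended on the ranking: with equal numbers of summits per library it was 5.93 points, and among the regions found in all libraries it was -1.45 points with the groups overlapping. The only site inside KLK2, chr19:50880068-50880736 near its 3′ end, was LNCaP-only and weak, at percentiles 10.1 and 4.35.

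Inside KLK3 the order of the groups was the reverse of that at its upstream site. The site chr19:50858778-50859340 had summits 4160 and 4113 bp past the start of KLK3 in LNCaP and 4175 and 4131 bp past it in LNCaP-resistance. Scores were 3.16 and 2.85 in LNCaP, near the lowest scores of those lists of 1.32, and 51.2 and 15.2 in LNCaP-resistance. The LNCaP summits ranked at percentiles 4.79 and 3.46, those of LNCaP-resistance at 82.7 and 60.6. The groups did not overlap. Between the means lay 67.5 points, with a pooled SD of 11.1, and the change was 77.9 points in batch 1 and 57.1 in batch 2. Of the regions found in all libraries, 99.85% had a lower change.

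Between KLK15 and KLK3 the sites within LOC105372441 changed in both directions. The site chr19:50842105-50842720, 12.5 kb below the start of KLK3, was LNCaP-only, at percentiles 77.1 and 61.9. The site chr19:50844202-50844748, 10.4 kb below that start, was at percentiles 91.2 and 79.7 in LNCaP, at 33.9 in LNCaP-resistance replicate 1, and had no summit in replicate 2. By contrast, chr19:50837272-50837790, 17.4 kb below the start of KLK3, was resistance-only, at percentiles 73.2 and 57.0.

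Adjacent to the resistance-only site lay chr19:50835893-50836493, which was found in all libraries, 2580 and 2569 bp above the upstream end of KLK15 in LNCaP. LNCaP summits ranked at percentiles 75.8 and 76.8, resistant ones at 77.4 and 86.5. The change of 5.61 points exceeded the pooled SD of 4.56 but was 1.58 points in batch 1 and 9.64 in batch 2. Lists of equal length gave 34.0 points, and ranking among the regions found in all libraries gave 20.7. By percentile in the whole list, 78.9% of those regions had a lower change. KLK15, a kallikrein also expressed in prostate, had no site of its own that was found in both libraries of a line. Within the gene, LNCaP replicate 2 had a summit at percentile 13.6 and LNCaP-resistance replicate 1 at 17.5.

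KLK1, which encodes tissue kallikrein, the enzyme that releases the peptide kallidin, had a stronger summit in the resistant line just below its lower-coordinate end. The promoter entries gave no strand for KLK1, so whether this end holds its start is not shown. The site chr19:50817827-50818733, which also lies at the end of the pseudogene TMEM277P, had summits 663 and 680 bp below KLK1 in LNCaP-resistance replicates 1 and 2. They scored 54.3 and 21.8, at percentiles 84.3 and 71.5. LNCaP replicate 1 had its strongest summit of the site 1069 bp below KLK1, at percentile 29.4, with a weaker one nearer to KLK1 at percentile 19.4, and LNCaP replicate 2 had none. LNCaP-resistance replicate 1 had a further summit inside KLK1, at percentile 33.4.

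**Figure D2:**
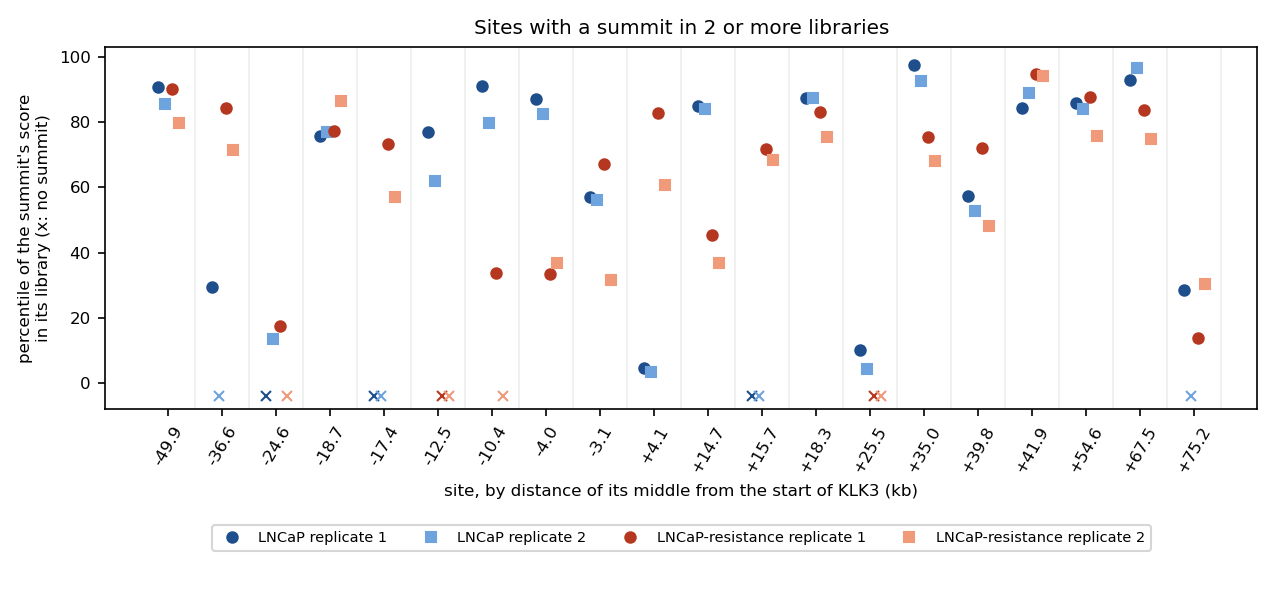
Percentile of the strongest summit (vertical axis) at each of the 20 sites with a summit in 2 or more libraries, ordered by distance from the start of KLK3 in kb; blue marks are LNCaP, red marks LNCaP-resistance, circles replicate 1, squares replicate 2, and crosses libraries with no summit. Blue lies above red at the sites 10.4 and 4.0 kb below and 14.7 and 34.99 kb above the start, and red above blue at 36.6 kb below and 4.1 kb above it.

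Toward KLK4, which encodes a protease also known from enamel formation, 2 sites in and beside KLKP1 moved in opposite directions. KLKP1 is a transcribed kallikrein pseudogene between KLK2 and KLK4. The first, inside it, chr19:50889632-50890173, was the highest-ranked of the window in LNCaP replicate 1, at percentile 97.5, and was at 92.7 in replicate 2. In LNCaP-resistance it was at 75.4 and 68.2. The groups did not overlap, and the change was -23.3 points against a pooled SD of 4.33, with -22.1 and -24.5 in batches 1 and 2. Yet 22.04% of the regions found in all libraries had a lower change.

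Just above KLKP1, chr19:50896517-50897040 went the other way and was the highest-ranked site of both resistant libraries. Its summits, between 369 and 392 bp above the pseudogene, ranked at 84.5 and 89.0 in LNCaP but at 94.8 and 94.2 in LNCaP-resistance, with scores of 31.6 and 31.7 against 88.2 and 54.0. The change of 7.78 points exceeded the pooled SD of 2.29 and was positive in both batches (10.4 and 5.21). Lists of equal length gave 26.0 points, and ranking among the regions found in all libraries gave 23.7. By percentile in the whole list, 82.1% of those regions had a lower change. Another site within KLKP1, chr19:50894405-50894967, ranked at 57.4 and 52.8 in LNCaP, whereas the resistant libraries placed it at 72.0 and 48.1, so the groups overlapped. Among the regions found in all libraries they did not, and the change was 19.8 points in place of 4.93.

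The site inside KLK4, chr19:50909195-50909737, had summits between 1908 and 1950 bp into the gene from its outermost annotated start. LNCaP libraries placed it at percentiles 85.8 and 83.9, resistant libraries at 87.6 and 75.7. The change of -3.21 points was within the pooled SD of 6.02, with opposite signs in the batches (1.796 and -8.21). Lists of equal length gave 15.4 points and ranking among the regions found in all libraries 7.84, and under both the resistant libraries were above LNCaP. Above KLK4, outside annotated genes, chr19:50922167-50922709 ranked at 93.0 and 96.4 in LNCaP, the latter the highest of the window in replicate 2, and resistant libraries placed it at 83.6 and 74.98. Its change of -15.5 points exceeded the pooled SD of 4.63 and was -9.43 and -21.5 in batches 1 and 2. A lower change was found at 31.8% of the regions with a summit in all libraries.

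At the other border of the window, chr19:50804714-50805297 at the lower end of TMEM277P ranked at 90.7 and 85.4 in LNCaP, and resistant libraries placed it at 90.3 and 79.7. The groups overlapped, and the change of -3.08 points was within the pooled SD of 5.90. It turned under the other rankings, to 11.4 points with equal numbers of summits, where the groups did not overlap, and to 6.05 among the regions found in all libraries, where they did. The remaining flanking sites were weak. One of them, chr19:50929744-50930406, was at percentile 28.6 in LNCaP replicate 1 and at 13.9 and 30.3 in LNCaP-resistance, and 2 sites seen in a single LNCaP library were at percentiles 29.1 and 8.58.

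Taken over the 12 sites with a summit in all libraries, the median of the window was close to that of the genome. The median change was -5.16 points, against -4.66 for all 31869 such regions. The percentile was lower in both resistant libraries than in both LNCaP libraries at 5 of the 12 sites, and 41.8% of all such regions met this rule. It was higher in both at 3 of the 12, against 17.7%. The changes ran from -49.9 to 67.5 points. The direction rested on the ranking: among the regions found in all libraries 4 sites were lower and 5 higher, where 29.98% and 35.3% of all such regions were. Without LNCaP-resistance replicate 2 the median change of the window was 1.08 points, against -3.94 for the genome. With equal numbers of summits per library, 3 of 8 sites were lower and 5 higher, against 23.7% and 42.8%.

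Under all 3 rankings, the site 3.8 kb upstream of KLK2, that inside KLKP1 and that above KLK4 were lower in both resistant libraries, and the sites above KLK15 and above KLKP1 were higher. The site upstream of KLK3 was lower and that inside KLK3 higher under both rankings that could place them. With equal numbers of summits, the KLK3 upstream site dropped out of LNCaP-resistance replicate 1 and the site inside KLK3 out of both LNCaP libraries.

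**Figure D3:**
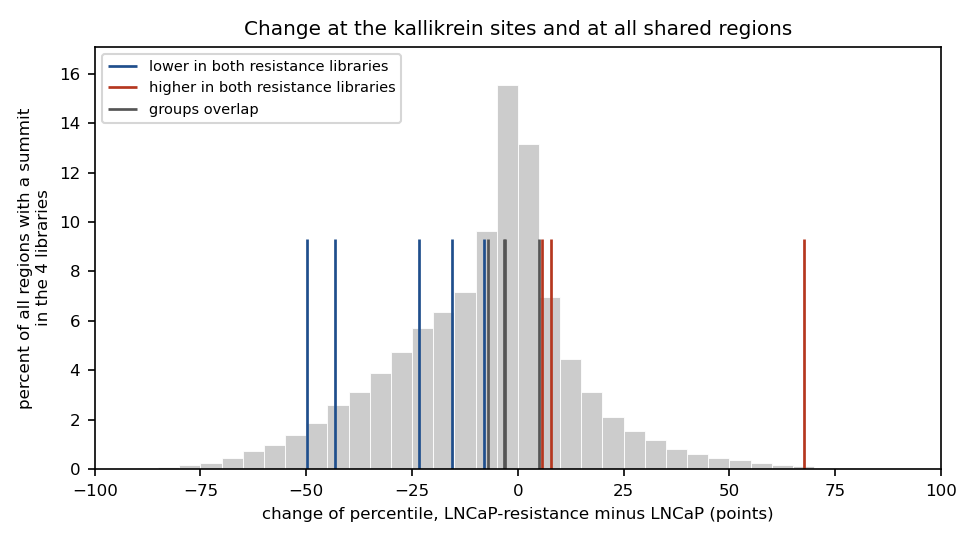
Change of percentile from LNCaP to LNCaP-resistance (horizontal axis, in points) for the 12 kallikrein sites with a summit in all libraries, as coloured lines, over the distribution of all 31869 such regions, as grey bars giving the percent of regions per 5 points. The lines run from -49.9 to 67.5, and their heights carry no value.

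Each member was also summarised by its strongest summit in or within 1 kb of the gene, with 0 where there was none. KLK1 and KLK3 were low in LNCaP and near KLK2 and KLK4 in LNCaP-resistance. Genes were compared by the larger SD of each pair, which is itself imprecise with n = 2, so small differences do not settle an order. In LNCaP, KLK2 was at 87.3 ± 0.0359 (SD, n = 2) and KLK4 at 84.9 ± 1.33, a difference larger than either SD. KLK1 at 9.70 ± 13.7, KLK15 at 6.78 ± 9.58 and KLK3 at 4.13 ± 0.941 lay within the larger SD of each other. So did KLK4 at 81.7 ± 8.41, KLK2 at 79.3 ± 5.60, KLK1 at 77.9 ± 8.99 and KLK3 at 71.7 ± 15.6 in LNCaP-resistance, where KLK15 was at 8.76 ± 12.4. KLK1 changed by 68.2 points and KLK3 by 67.5, both beyond the pooled SDs of 11.6 and 11.1.

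The mean over the 5 genes was 39.5 and 37.6 in LNCaP and 71.1 and 56.6 in LNCaP-resistance. It rose in each batch, by 31.6 and 18.98 points, and its change of 25.3 points exceeded the pooled SD of 7.27 (exact two-sided permutation test, p = 0.333, the smallest possible). Most of it lay in KLK1 and KLK3, since the changes of KLK15, KLK2 and KLK4 were 1.98, -8.02 and -3.21 points. For KLK1 the strongest resistant summits lie outside the gene, within TMEM277P. For KLK3 the summit concerned lies in the gene body, and the upstream site that fell is too far from the gene to enter this measure. The mean was not compared with the same measure over all genes, so whether its rise is particular to the cluster was not tested.

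**Figure D4:**
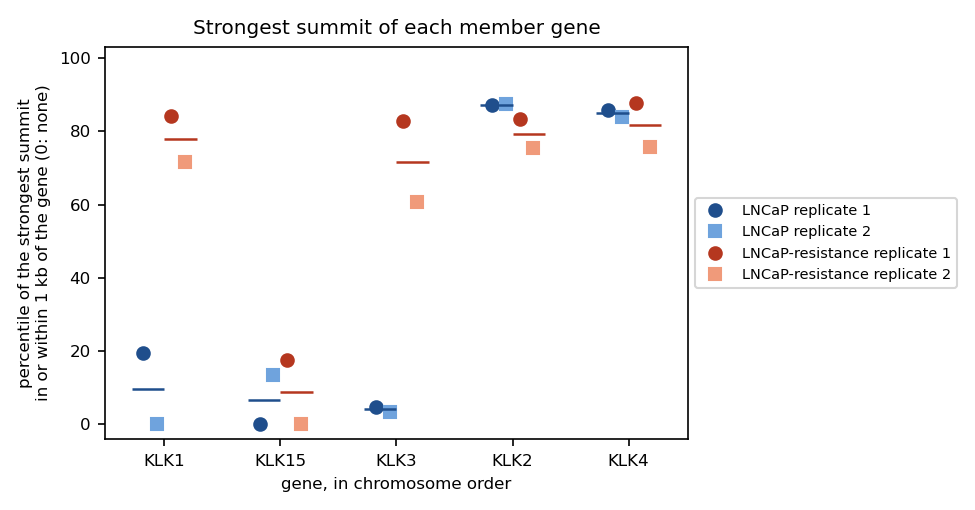
Percentile of the strongest summit in or within 1 kb of each member gene (vertical axis, 0 where the library had none), with genes in chromosome order; marks are libraries and short lines the means of each line. KLK1 and KLK3 lie at or below 19.4 in LNCaP and at or above 60.6 in LNCaP-resistance, KLK15 is low in all libraries, and KLK2 and KLK4 are above 75 in all.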

How the data were processed

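ATAC-seq was done in 2 LNCaP and 2 LNCaP-resistance libraries. The authors deposited 1 list of 1-base peak summits for each library, with a score that is −log10 of the peak caller's p-value or q-value and starts just above 1.301, the −log10 of 0.05. The submitters' processing notes name Bowtie2 2.2.5, SAMtools 1.6, MACS2 2.2.6, deepTools 3.5.2, HOMER 4.11 and the build hg38. Parameters, read filters and any shift of cut sites are not given in the sources used here. Without read counts, depth and its precision are unknown, and no model per region could be used.

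Summits were ranked within their library and merged into regions over all 4 lists. Genes came from RefSeq for GRCh38.p14 (59679 genes on the main chromosomes), and promoters and strands from its promoter table. The genes, sites and lists were chosen with earlier results of these data known. The rule named the 5 members, other annotated genes in the window, each site with a summit in at least 2 libraries, and KLK5 to KLK14 by counts. Part of the list of luminal genes is not reported here. The planned search for the response element with 1 or 2 mismatches was widened to 5, to cover all member promoters. The batch tags pair the libraries, although the differences between replicates 1 and 2 of the 2 lines had a Pearson's r of -0.0128 over the 31869 regions found in all libraries (across regions, which are not replicates). Region merging was tested on simulated lists, where 100% of 6000 planted regions were recovered. Those regions lay well apart, with at most 1 summit per library, so close neighbours and chains of summits were not tested. Alternatives were extending summits by 100 or 500 bp, keeping scores from 10 up, cutting every list to its 45618 best summits, 5 kb flanks, 3 kb around genes, ranking among regions found in all libraries, leaving out each library, and comparison within each batch. Software was matplotlib 3.10.9, biopython 1.88, scipy 1.17.1, pandas 2.3.3, numpy 2.4.6 and Python 3.11.15.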

Additional observations from a re-analysis of the deposited data

How the results depend on the processing

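The number of summits in the window had a ratio of 1.00 between the lines and lay between 0.889 and 1.11 when each library was left out. The ratio of the list shares was between 1.76 and 2.19 in those comparisons and 1.295 on chromosome 19, a setting added after seeing the data, as were the counts of lower and higher sites under other rankings. With equal numbers of summits per library, which removes the difference in list length, both ratios were 1.36. LNCaP-only sites numbered between 2 and 3 without each library, where between 28.6% and 46.9% of all regions were LNCaP-only. Resistance-only sites numbered between 2 and 4, where between 5.23% and 12.0% of all regions were resistance-only. The highest number was without LNCaP replicate 1, where the share was 6.33%. Resistance-only sites numbered 1 with windows of 500 bp, 4 with a score of at least 10 and 6 with equal numbers of summits, where 3.604%, 4.33% and 14.9% of all regions were resistance-only. The mean over the 5 genes changed by 18.1 to 32.5 points without each library.

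The median change over the sites found in all libraries, -5.16 points, was between -10.6 without LNCaP-resistance replicate 1 and 1.08 without LNCaP-resistance replicate 2. The genome's median was -10.2 and -3.94 in those settings. That of the window was 8.65 with equal numbers of summits, where the genome's median was 4.60, and 6.52 among the regions found in all libraries, where it was 1.52. With the batch as replicate block the window's median was -0.47 in batch 1 and -10.1 in batch 2, against -4.05 and -8.40 for the genome. LNCaP-only sites then numbered 3 and 5, against 48.9% and 60.8% of all regions, and resistance-only sites 4 in each, against 15.7% and 9.24%. The signs of KLK2, KLK4 and KLK15 were not stable: with equal numbers of summits KLK2 changed by 5.93 and KLK4 by 15.4 points, and KLK15 by 17.5 and -13.6 in batches 1 and 2. KLK1 and KLK3 kept their direction in every alternative run for them, from 58.5 to 77.9 points and from 49.8 to 78.6 points. With scores from 10 up and with equal numbers of summits, their LNCaP summits dropped out and counted as 0. Those settings therefore could not reverse the direction. The causes were not tested. Unknown depth limits every statement on a missing summit.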

Other observations

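The other kallikreins, KLK5 to KLK14, occupy chr19:50943303-51084210, just above the cluster, and are best known from skin and other epithelia. This stretch of 140908 bp held 10 and 11 summits in LNCaP and 11 and 5 in LNCaP-resistance. They formed 20 sites, of which 2 were found in all libraries, 5 were LNCaP-only, 1 was resistance-only and 12 had other combinations. Among all regions 21.1%, 27.5% and 3.84% were in the first 3 of these classes. In the window from KLK1 to KLK4, 12 of 23 sites were found in all libraries.

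With 1 kb on either side, 5 and 6 of the 10 genes had a summit in LNCaP, and 7 and 5 in LNCaP-resistance. The strongest summit of KLK9 was absent in LNCaP replicate 1 and at percentile 7.67 in replicate 2, and was at 82.1 and 68.7 in LNCaP-resistance. KLK12 was at 42.2 and 40.0 in LNCaP, at 2.82 in LNCaP-resistance replicate 1, and had no summit in replicate 2. The resistant summit of KLK12 was in another region than those of LNCaP. KLK5 had no summit in LNCaP replicate 1, one at 22.9 in replicate 2, and ranked at 25.5 and 26.5 in LNCaP-resistance. The KLK5 values came from separate regions, so they do not compare a single site. The share of all genes whose groups did not overlap was not computed. The remaining 7 genes overlapped between the groups or had no summit.

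Among the luminal genes, the strongest summit in or within 1 kb of FOXA1, which encodes a pioneer factor of luminal prostate cells, ranked at percentiles 38.5 and 52.0 in LNCaP but at 87.6 and 86.0 in LNCaP-resistance. TMPRSS2, an androgen-regulated membrane protease, was at 76.9 and 73.7 against 58.5 and 43.4. HOXB13, a prostate homeobox gene, was at 65.6 and 56.1 against 64.4 and 49.7, and its groups overlapped. For these genes too, the strongest summits of the libraries need not come from a single site. How many of all genes had groups that did not overlap was not computed.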
